A study of Homo sapiens with 2 samples.

Results

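CXC chemokines are small secreted proteins, named for the spacing of their first cysteines, and 9 of the genes in their cluster on chromosome 4 are described here: CXCL8, CXCL1, CXCL2, CXCL3, CXCL5, CXCL6, PF4, PF4V1 and PPBP. They were chosen by family with earlier log2 ratios of these arrays known, and every probe set that the platform's table assigns to 1 of them alone was taken, which gave 14 of 41091 single-gene probe sets and 9 of 19775 genes. No probe set was shared between a chemokine of this group and another gene. The signals and log2 ratios of GAS2DN to Venus are the values the choice rests on, so they are given as a description and not as a test.

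MEG-01 is a megakaryoblastic line from chronic myeloid leukemia, which carries BCR-ABL. The cells were transduced with a lentivirus that expresses the fluorescent protein Venus alone (Venus, the control) or together with GAS2DN, a truncated, dominant negative GAS2 that releases calpain from inhibition. The spleen focus forming virus promoter drove the transgene, and transduced cells of both groups were purified by fluorescence. RNA from 3 extracts per group was pooled for each of the 2 U133 Plus 2.0 arrays, which therefore have no replicates, and no test or error between the groups can be given. In pooled bulk RNA, fewer cells that transcribe a gene and less RNA per cell cannot be told apart.

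The chemokines of this cluster fall into kinds with different known work. CXCL8, which is interleukin-8, and CXCL1, CXCL2, CXCL3, CXCL5 and CXCL6 attract neutrophils through the receptors CXCR1 and CXCR2, and their genes are classical targets of NF-kB. PPBP is cleaved to a neutrophil-attracting peptide of the same kind, but like PF4 it is made by megakaryocytes and stored in platelet alpha granules. PF4, platelet factor 4, binds heparin and related glycosaminoglycans and does not attract neutrophils in the way that CXCL8 does, and PF4V1 is a close copy of it. In RefSeq the genes follow each other on chromosome 4 in the order CXCL8, CXCL6, PF4V1, CXCL1, PF4, PPBP, CXCL5, CXCL3 and CXCL2, with no other protein-coding gene between them.

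The promoter of CXCL8 is shown because this gene had the clearest difference between the arrays. In the RefSeq promoters (GRCh38.p14), which run from 250 bases before the annotated start of a gene to 50 bases after it, the 300 bases of CXCL8 lie at chr4:73740319-73740618 on the plus strand. Capitals mark an AP-1 match (TGANTCA, on either strand), which begins at -137 from the start, and a kappaB match (GGAATTTCC, on either strand), which begins at -91.
CXCL8 promoter: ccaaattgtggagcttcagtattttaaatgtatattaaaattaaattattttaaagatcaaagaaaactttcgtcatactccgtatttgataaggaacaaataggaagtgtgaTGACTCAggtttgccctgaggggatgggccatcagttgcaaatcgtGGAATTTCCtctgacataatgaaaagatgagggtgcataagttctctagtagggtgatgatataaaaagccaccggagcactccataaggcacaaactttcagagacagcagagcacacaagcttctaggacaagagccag

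The kappaB letters were held by 6 of the 8 chemokine promoters matched, those of the 6 neutrophil-attracting genes other than PPBP, whereas 0.461% of 35116 promoters of the same length held them. Only this exact string was searched, so kappaB sites with other letters were not counted. The match began between -91 and -77 in all 6, and is shown in capitals with 12 bases on each side, in the direction of the gene.
CXCL8: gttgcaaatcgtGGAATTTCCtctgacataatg
CXCL1: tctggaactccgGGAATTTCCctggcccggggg
CXCL2: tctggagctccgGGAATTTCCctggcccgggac
CXCL3: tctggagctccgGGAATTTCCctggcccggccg
CXCL5: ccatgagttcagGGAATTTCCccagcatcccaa
CXCL6: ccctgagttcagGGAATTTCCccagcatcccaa

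These matches lie on GRCh38.p14 at chr4:73740478-73740486 for CXCL8, chr4:73869315-73869323 for CXCL1, chr4:74099264-74099272 for CXCL2, chr4:74038759-74038767 for CXCL3, chr4:73998759-73998767 for CXCL5 and chr4:73836589-73836597 for CXCL6, with CXCL2, CXCL3 and CXCL5 on the minus strand. The AP-1 letters were found in CXCL8 and in none of the other 7 promoters, and in 7.71% of all promoters. The letters AGATAA, which GATA factors of the megakaryocyte lineage can bind, were found on either strand in CXCL5, CXCL6 and PPBP, and in 10.3% of all promoters. PPBP held them at 2 places. They are shown in capitals, with positions counted from the start, in the first with the letters on the strand of the gene and in the second on the opposite strand.
PPBP, from -217: caggtgtaaggaAGATAAgtattgagaaag
PPBP, from 3: atgagaagccacTTATCTgcagacttgtag

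In the PPBP promoter the first match lies at chr4:73988402-73988407 and the second at chr4:73988183-73988188. A match is a description of letters and not of a factor bound there, and a promoter without one says nothing about the factor. Aligned end to end, the promoters of CXCL5 and CXCL6 were 83.1% identical, those of CXCL1 and CXCL3 82.5%, CXCL2 and CXCL3 73.8% and CXCL1 and CXCL2 72.1%, against a median of 47.0% over the 28 pairs. The kappaB matches in these alike promoters are therefore not independent of each other.

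**Figure D1:**
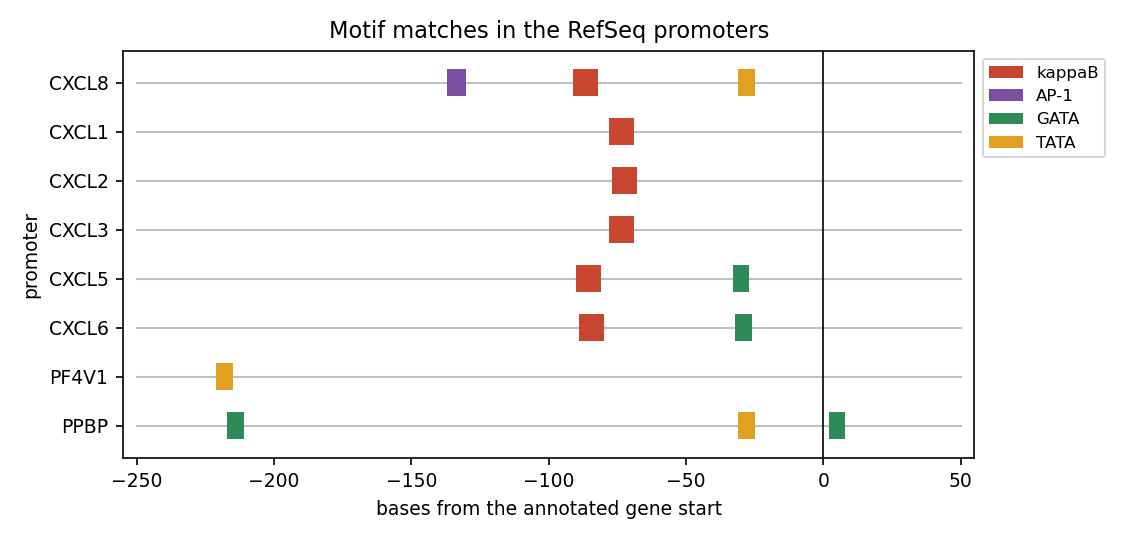
Positions of motif matches (boxes, width to scale) in the 8 RefSeq promoters, with the distance in bases from the annotated gene start on the horizontal axis and 0 at the start. The kappaB boxes of CXCL8, CXCL1, CXCL2, CXCL3, CXCL5 and CXCL6 begin between -91 and -77, and PF4V1 and PPBP have none. TATA stands for the letters TATAAA on either strand, found in 11.5% of all promoters.

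The signals are MAS5 signals in arbitrary units, and a signal can be compared between the arrays for 1 probe set but not between probe sets. The median signal over all probe sets other than controls was 55.6 for Venus and 69.1 for GAS2DN, which is a difference of 0.31 on the log2 scale. A probe set was called eligible when its brighter signal reached the median of its array. Over 3-fold higher were 4.96% of 24840 eligible single-gene probe sets but 24.2% of the 16251 others, and over 3-fold lower were 3.36% and 14.0%. Over all single-gene probe sets the shares were 12.6% and 7.58%. The excess of higher over lower eligible probe sets, 1231 against 834, turned to 996 against 1107 when the arrays were centred on their medians. Probe sets were also put into 10 classes by their mean log2 signal. The spread of log2 ratios between probe sets of 1 gene in the same signal class, the only repeated measure on these arrays, had an SD of 0.25 in the brightest class and 2.39 in class 2, which is next to the dimmest. GAS2 itself was read by 1 probe set, with dim signals of 24.3 and 34.7, and whether this lies in the part that GAS2DN keeps was not checked here.

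The megakaryocyte label was borne out by most of the markers listed for it. Of the 8 with a probe set of their own, 7 reached the array median on both arrays. ITGA2B, the alpha subunit of the platelet fibrinogen receptor, had signals of 7149 and 9238 on the Venus and GAS2DN arrays, and GP1BA, part of the receptor for von Willebrand factor, had 1113 and 1196. The exception was VWF, with 20.0 and 25.1. PF4 and PPBP, which megakaryocytes also make, were not on this list. They were below the median on both arrays, with 40.8 and 25.9 for PF4 and 38.8 and 36.4 for PPBP. Of the 10 monocyte and neutrophil markers 2 reached the median in Venus and 5 in GAS2DN cells, their summed signal was 451 and 789, and 8 were higher in GAS2DN cells, with a median log2 ratio of 1.16 over the list. By the same choice of probe set 11463 of all 19775 genes were higher, with a median log2 ratio of 0.09. Most of these markers were dim with Venus, and dim probe sets often had high ratios. In signal classes 1 to 5, the dimmer ones, the median log2 ratio lay between 0.33 and 0.50. Between 14.9% and 36.1% of the probe sets in each of those classes were over 3-fold higher. Whether such cells were more frequent was not tested. S100A8, a calcium-binding protein of neutrophils and monocytes, had 4.66 and 87.0, and its partner S100A9 had 8.99 and 62.5. FCGR3B, a neutrophil Fc receptor, had 10.8 and 100.3, and FPR1, a receptor for bacterial peptides, 8.88 and 65.8. The 2 lower ones were CD14, which defines monocytes, with 5.13 and 4.48, and LYZ with 275 and 259. S100A8, S100A9, FCGR3B and FPR1 were all below the array median with Venus, and S100A9 and FPR1 were below it with GAS2DN too. Summed signals of the 6 fibroblast markers were 1202 and 1773, with THY1 as the largest part at 1005 and 1539, and those of the 5 endothelial markers 6543 and 7356, with PECAM1, which megakaryocytes also express, at 6330 and 7025. The 5 T and B cell markers on the array summed to 254.3 and 351.1. The part of these markers in the chemokine values was not tested.

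CXCL8 was the chemokine with the clearest difference, and both of its probe sets were brighter on the GAS2DN array. The probe set ending in _s_at read 50.1 with Venus, just under that array's median, and 411 with GAS2DN, which is 8.19-fold higher or 3.03 on the log2 scale. The one ending in _x_at read 304 and 844, both above the medians, which is 2.78-fold higher or 1.47 on the log2 scale. In rank order over all probe sets of an array, the first moved from percentile 47.9 to 75.8 and the second from 72.5 to 83.2. Both probe sets therefore placed CXCL8 higher on the GAS2DN array, though by different amounts.

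The difference between the CXCL8 probe sets, 3.03 against 1.47, was itself larger than the usual spread at their signals, where the SD between probe sets of 1 gene was 0.55 for the class of the first and 0.41 for that of the second. In the signal class of the _s_at probe set 0.782% of 4350 probe sets were over 3-fold higher, and in that of the _x_at one none of 4772 was over 3-fold and 0.775% were over 2-fold higher. Of 24840 eligible single-gene probe sets 515 had a larger ratio than the _s_at probe set, and of the 20496 whose signals both reached the median 57 had a larger ratio than the _x_at one. All eligible probe sets were over 2.5-fold higher in 28 of the 6422 genes with at least 2 of them, or 0.436%, and CXCL8 was among these 28. This count was chosen after the values of CXCL8 were seen and describes where the gene stands. The _s_at probe set was eligible only through its GAS2DN signal, so its rank and this count are descriptions and no support. Where both signals had to reach the median, the _s_at probe set had no rank. With signals below the median raised to it, the _s_at probe set was 7.38-fold higher, and under the other scalings and choices of probe set the log2 ratio of CXCL8 lay between 1.47 and 3.03.

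**Figure D2:**
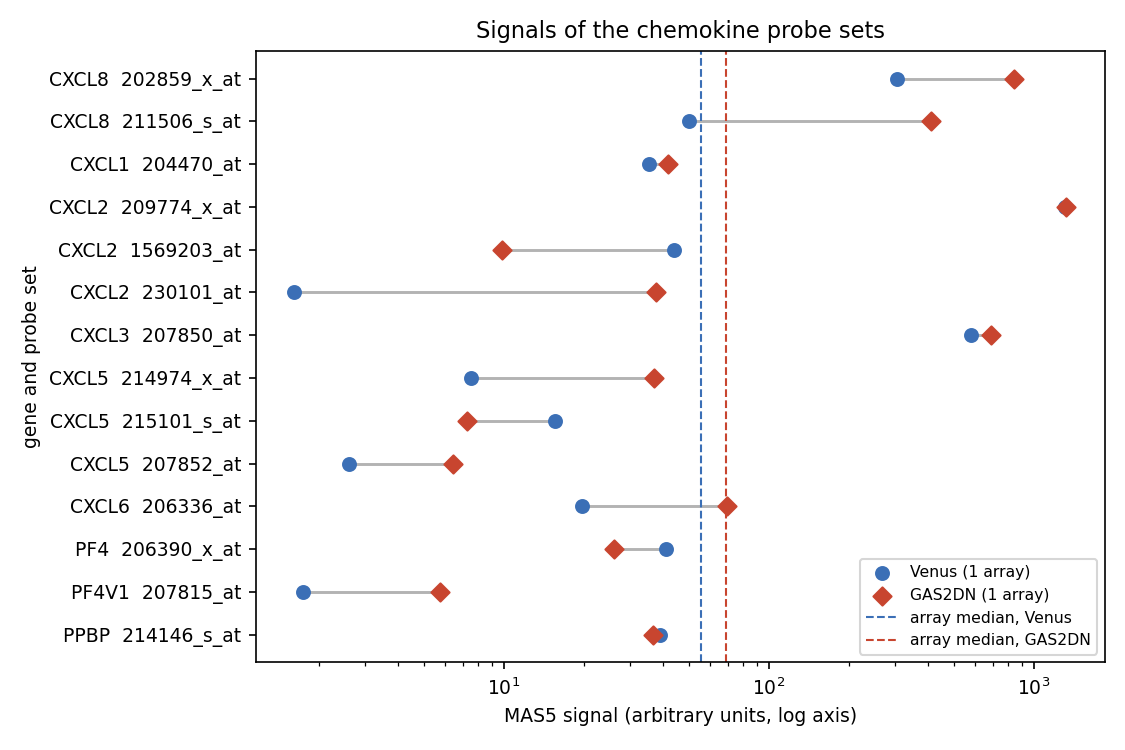
MAS5 signal (log axis, arbitrary units) of each of the 14 probe sets on the Venus array (circles) and the GAS2DN array (diamonds), 1 array per group, with the array medians as dashed lines. CXCL8 stands out with 50.1 against 411 and 304 against 844, while CXCL3 and the bright CXCL2 probe set have nearly the same signal on both arrays and most others lie left of the medians.

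CXCL1, CXCL2 and CXCL3, the GRO chemokines, which share the receptor CXCR2 with CXCL8, had no difference of that size in their bright probe sets. CXCL2 in its _x_at probe set read 1311 with Venus and 1324 with GAS2DN, which is a ratio of 1.01. CXCL3 read 578 and 689, a ratio of 1.19, or 0.25 on the log2 scale. These and the CXCL8 probe set ending in _x_at were the ones with both signals above the medians, and the SD between probe sets of 1 gene in the class of CXCL2 and CXCL3 was 0.34, so both log2 ratios were within it. The CXCL3 log2 ratio turned to -0.06 when both arrays were centred on their medians, but was 0.28 after quantile normalization and 0.26 after loess. It was above 0 under 9 of 10 alternatives.

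CXCL1 read 35.4 and 41.8, both below the medians, a ratio of 1.18. Its log2 ratio of 0.24 became -0.07 after centring, -0.13 after quantile normalization and -0.11 after loess, so that no direction can be given. The other probe sets of CXCL2 were dim and went opposite ways. The brighter, which is the main one, read 44.0 with Venus and 9.84 with GAS2DN, 0.224 as a ratio, and the dimmer read 1.62 and 37.5, or 23.1. The SD between probe sets of 1 gene was 1.95 and 2.39 on the log2 scale in their signal classes, where 29.9% and 31.0% of all probe sets were over 3-fold higher and 20.0% and 19.5% over 3-fold lower. The GRO chemokines thus gave 2 bright readings close to equal, and 3 dim ones in both directions. The ending _x_at marks probe sets that may bind other transcripts, which holds for the bright probe set of CXCL2 and 1 of CXCL8, and their part in these signals was not tested.

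CXCL5 and CXCL6, a closely related pair that also acts on neutrophils, were read by dim probe sets. CXCL6 read 19.7 with Venus and 69.6 with GAS2DN, 3.54-fold higher or 1.82 on the log2 scale. The second signal exceeded the array median of 69.1 by very little, and with low signals raised to the median the ratio was 1.25, which is nearly the ratio of the array medians themselves, 1.24. After centring, quantile normalization or loess the log2 ratio of CXCL6 was 1.51, 1.47 and 1.47, below the 3-fold line. In its signal class 14.9% of probe sets were over 3-fold higher and the SD between probe sets of 1 gene was 1.23.

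CXCL5 was below the median on both arrays in all 3 probe sets. The signals of the _x_at probe set were 7.51 and 36.8, or 4.90-fold higher. The _at probe set had 2.60 and 6.45, or 2.48-fold higher, and the _s_at one 15.5 and 7.26, or 0.468 as a ratio. The probe sets of CXCL5 thus lay on both sides of equality, with SDs between probe sets of 1 gene of 2.34, 1.62 and 2.39 in their signal classes.

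The platelet chemokines were dim in this megakaryoblastic line, and none of their probe sets reached the median of either array. PF4 read 40.8 with Venus and 25.9 with GAS2DN, or 0.635 as a ratio, at percentiles 43.6 and 30.3 of the arrays. PPBP read 38.8 and 36.4, a ratio of 0.940, at percentiles 42.5 and 35.98. The log2 ratios of -0.65 for PF4 and -0.09 for PPBP were within the SD of 1.23 between probe sets of 1 gene in their class, and with low signals raised to the array median both were 0.31, the ratio of the medians themselves, while with the array median added to each signal they were -0.02 and 0.16. PF4V1 read 1.75 and 5.73, near the bottom of both arrays at percentiles 2.63 and 10.5, and its ratio of 3.28 stands beside 21.9% of probe sets over 3-fold higher in the same signal class. None of these 3 genes had a reading from which a direction between the groups can be given.

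**Figure D3:**
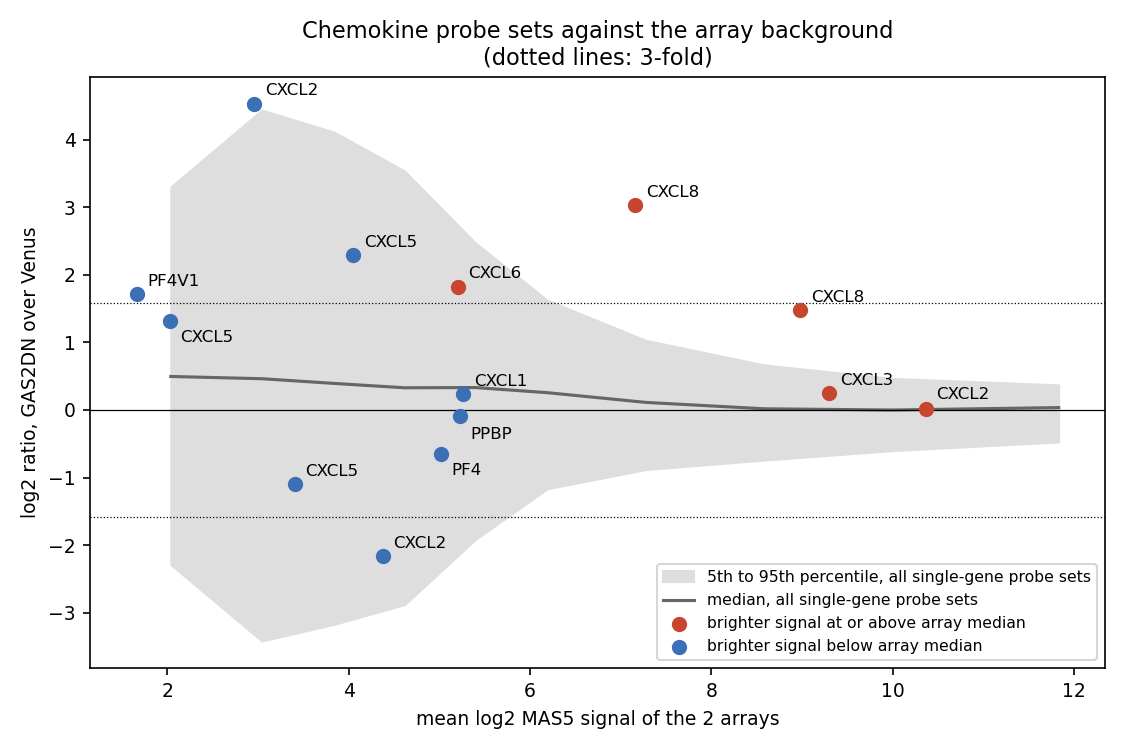
Log2 ratio of GAS2DN to Venus signal against the mean log2 signal for the 14 chemokine probe sets, over the range from the 5th to the 95th percentile of all single-gene probe sets in each of 10 signal classes (grey). Red points are eligible and blue ones are not, and dotted lines mark 3-fold. Both CXCL8 points lie above the grey range at signals where it is narrow, while the points of CXCL1, CXCL3, CXCL5, CXCL6, PF4 and PPBP lie inside it.

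Counted over the group, 5 of the 14 probe sets were eligible. Of these 2 were over 3-fold higher, the _s_at probe set of CXCL8 and the single _at probe set of CXCL6, and none over 3-fold lower, beside 4.96% and 3.36% of all eligible single-gene probe sets. Both were eligible only through the GAS2DN array, as their Venus signals of 50.1 and 19.7 lay below the Venus median. Where both signals had to reach the median the count was 0. Just outside 3-fold was the second CXCL8 probe set with 2.78. Of the other 9 probe sets 3 were over 3-fold higher and 1 lower, beside 24.2% and 14.0% of all probe sets that were not eligible. The median log2 ratio was 0.78 over the 14 probe sets and 0.10 over all single-gene ones, but as 9 of the 14 were dim this median rests mostly on values with a wide spread. By gene, 4 had an eligible probe set, CXCL8, CXCL2, CXCL3 and CXCL6, and the other 5 had none. All probe sets were higher in 5 genes, CXCL8, CXCL1, CXCL3, CXCL6 and PF4V1, lower in PF4 and PPBP, and split in CXCL2 and CXCL5. By main probe set 5 of the 9 genes were higher, beside 11463 of all 19775 genes. These are signs of ratios only, and no direction can be given for CXCL1, PF4V1, PF4 and PPBP.

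The genes whose main probe set was nearest to that of CXCL8 by distance over the 2 log2 signals were CCDC60, with 49.0 and 276, EMC3-AS1, with 69.3 and 283, and ABCB9, with 48.5 and 236, at distances of 0.58, 0.71 and 0.80. The same was done for CXCL3, which says nothing of its level against other genes, and the nearest were NUP42, NDRG2 and UBL3, at distances of 0.01, 0.02 and 0.03. ABCB9 and NDRG2 each had 2 other probe sets, with ratios on both sides of equality, so neither gene as a whole followed its main probe set. The other probe set of UBL3 had a ratio of 1.17, close to that of its main one. CCDC60, EMC3-AS1 and NUP42 had no other probe set. With only 2 arrays such nearness is a likeness of level and ratio between main probe sets and no more.

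Other chemokines were mostly too dim to read. Of 35 genes on a list of further CXC, CC, CX3C and XC chemokines 30 had a probe set of their own and 5 were eligible by the main one, the brightest with probe sets ending in _x_at left out where others exist. Among these 2 were over 3-fold higher and none lower, beside 4.54% and 2.33% of 13086 genes with an eligible main probe set. CXCL16, a transmembrane chemokine, read 6.25 and 72.5, and CCL21, which guides lymphocytes into lymph nodes, read 8.49 and 69.2. The lowest were CCL28, a mucosal chemokine, with 67.5 and 27.0, and CXCL12, the marrow ligand of CXCR4, with 55.8 and 47.5. Each of these 4 had a signal below the median on 1 array, and raised to it the ratios lay between 1.02 and 1.30, so that none had a difference like that of the second CXCL8 probe set.

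Of 23 chemokine receptors 21 had a probe set of their own and 7 were eligible, with 1 over 3-fold higher and 1 lower, beside the same 4.54% and 2.33%. CXCR2, the shared receptor of the neutrophil-attracting chemokines, read 58.7 with Venus and 7.07 with GAS2DN, or 0.120 as a ratio, but 1.18 with low signals raised. CXCR1, which binds CXCL8, read 17.1 and 36.4, and CXCR3, an isoform of which can bind PF4, read 11.9 and 20.2, with 14.6 and 3.30 in its other probe set. CXCR4 read 65.3 and 26.3, and its other probe sets, dim on either array, 29.5 and 2.54 in one and 7.34 and 16.0 in the other. ACKR1, the Duffy antigen, which takes up CXC and CC chemokines on red cells, was above the median on both arrays with 202 and 247, a ratio of 1.22. The highest were CCR10 with 8.58 and 85.8, or 10.0-fold but 1.54-fold with low signals raised, and the scavenging receptor ACKR2 with 53.5 and 90.0, or 1.68-fold and 1.62-fold. Neither CXCR1 nor CXCR2 reached the median on both arrays.

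Cytokines that induce CXCL8 were listed with their receptors and adaptors, and with IL1RN, an antagonist of interleukin-1. The 13 eligible genes of 24 had a median log2 ratio of -0.04, beside 0.06 over the 13086 genes with an eligible main probe set. None was over 3-fold in either direction, beside 4.54% higher and 2.33% lower of those 13086 genes. IL6 was among the 2 highest with 132 and 233, 1.76-fold higher, and IL17RA, a receptor of interleukin-17, had 55.4 and 99.6. The lowest were LIF with 202 and 144 and LTB with 250 and 179, and the other probe set of LTB went the other way with 81.5 and 157. IL1B, an inducer of CXCL8 chosen as an example after its values were seen, was higher in both of its bright probe sets, with 1010 and 1718 in one and 857 and 1046 in the other.

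Factors that act at the CXCL8 promoter or on its mRNA had a median log2 ratio of 0.06 over 25 eligible genes of 26, and 2 were over 3-fold higher and none lower, beside 4.54% and 2.33% of all genes with an eligible main probe set. FOSL1, an AP-1 subunit, read 24.4 and 154, a ratio of 6.30, and 2.76 with low signals raised. NFKB2, the p100 and p52 subunit of NF-kB, read 25.1 and 124, a ratio of 4.95, and 2.23 with low signals raised. A second probe set of NFKB2 read 12.04 and 181, and was 3.25-fold higher with its low Venus signal raised to the median, and the third, dim on both arrays, 29.2 and 26.5. The lowest were JUNB, an AP-1 subunit with 698 and 350, a ratio of 0.501, and ZFP36L1, a protein that promotes decay of AU-rich mRNAs, with 805 and 492, though another eligible probe set of ZFP36L1 went the other way with 2.51 and 73.2. RELA, the activating subunit of NF-kB, had 834 and 1027, NFKB1 had 833 and 776, and the inhibitor NFKBIA 814 and 855. CEBPB, which also acts at the CXCL8 promoter, had 3048 and 3172. These 4 were taken as examples after their values were seen, and by main probe set all had ratios between 0.931 and 1.23.

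Factors that act at the PF4 and PPBP promoters had a median log2 ratio of 0.10 over 14 eligible genes of 19, with 1 over 3-fold higher and none lower, beside 4.54% and 2.33%. This was SPI1, the myeloid factor PU.1, with 29.4 and 161, a ratio of 5.46, and 2.89 with low signals raised. NFE2, a factor of platelet formation, had 2975 and 4295, while ETS1 had 9842 and 5339, with log2 ratios of -0.39 and 0.07 in its other probe sets. FLI1 had 10408 and 6806, and its other 4 eligible probe sets had ratios between 0.624 and 0.999. GATA1, the main GATA factor of the lineage and an example chosen after its values were seen, was nearly equal with 1617 and 1516.

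Cargo of the alpha granule and partners of PF4 in glycosaminoglycan binding had a median log2 ratio of 0.08 over 21 eligible genes of 28. None was over 3-fold in either direction, beside 4.54% higher and 2.33% lower of all genes with an eligible main probe set. SRGN, the proteoglycan serglycin that holds PF4 in the granule, was bright and nearly equal with 9841 and 9696, and was taken as an example after its values were seen. The highest on the list were THBS1 with 49.7 and 97.5, though 109 and 16.0 in another eligible probe set, and CTSG with 129 and 251. CTSG, cathepsin G, is a protease known from neutrophil granules rather than from the alpha granule. The lowest were PDGFB with 74.2 and 38.1, though 141 and 235 in another eligible probe set, and MMRN1, the granule protein multimerin, with 784 and 459.

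**Figure D4:**
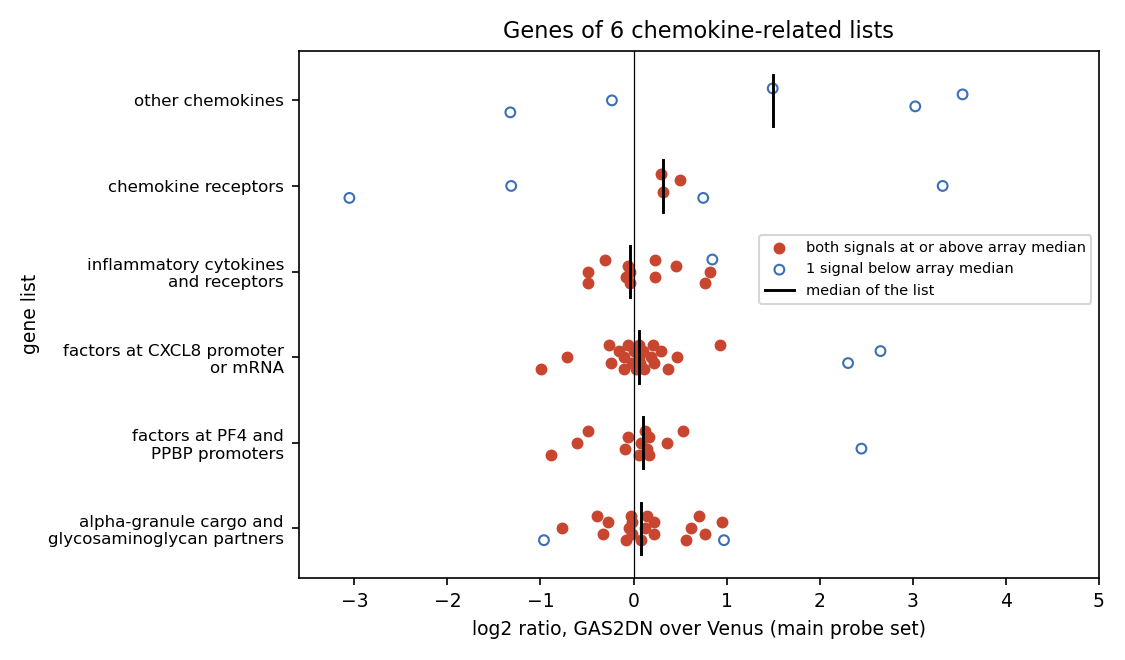
Log2 ratio of GAS2DN to Venus signal by main probe set for the eligible genes of 6 lists around the chemokines, with filled points where both signals reached the array median, open points where 1 did not, and a bar at the median of each list. The values over 3-fold are all open points, and the medians of the 4 lists with over 10 eligible genes lie between -0.04 and 0.10.

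**Figure D5:**
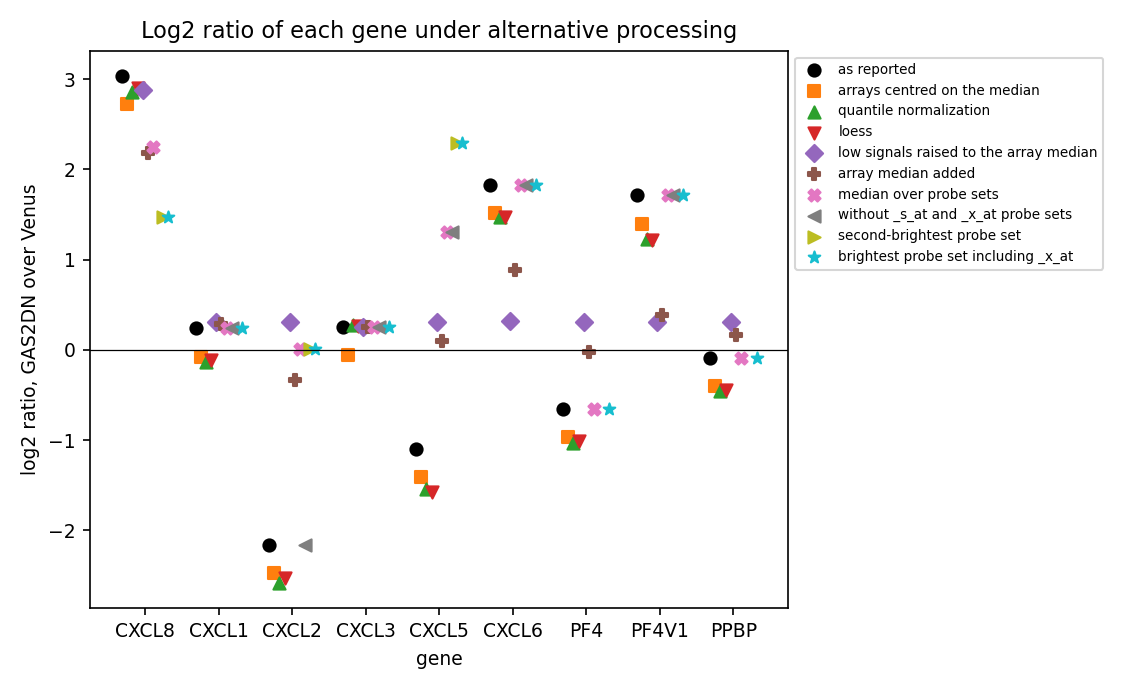
Log2 ratio of GAS2DN to Venus signal of each chemokine gene by its main probe set as reported (black) and under each alternative way of scaling, of treating low signals or of choosing the probe set (coloured symbols). CXCL8 stays between 1.47 and 3.03, while CXCL1, CXCL2, CXCL3, CXCL5, PF4 and PPBP have values on both sides of 0.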

How the data were processed

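The authors deposited log2 values of MAS5 signals for 2 Human Genome U133 Plus 2.0 arrays, 1 per group, each hybridised with RNA pooled from 3 extracts. The submitters' notes name MAS5, and its version is not given in the sources used here. After conversion to a linear scale the 2% trimmed mean was 500.1 on each array. Detection calls are not part of the values.

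Of 54675 probe sets 62 are controls. The platform's table gave 41091 a single gene, 1801 several and 11721 none, and symbols were updated through the gene identifier. Eligible probe sets, main probe sets and signal classes are defined in the text. Ratios are GAS2DN over Venus. The chemokines, gene lists and markers were chosen with earlier results of these data known. Genes named from the lists were the 2 highest and 2 lowest by eligible main probe set, CXCR1, CXCR2, CXCR3, CXCR4 and ACKR1, and others stated as examples. With 1 array per group no test was possible, so that precision is limited by having 2 arrays. The steps were tested on simulated data. Promoters are from RefSeq, GRCh38.p14, matched by symbol for 8 of the 9 genes, PF4 being the other one. Alternatives were run for the filter on low values, the scaling, the low signals and the choice of probe set. Python 3.11.15, numpy 2.4.6, pandas 2.3.3, scipy 1.17.1, Biopython 1.88 and matplotlib 3.10.9 were used.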

Additional observations from a re-analysis of the deposited data

How the results depend on the processing

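CXCL8 and CXCL6 had a log2 ratio above 0 under every alternative that gave a value, and so did PF4V1. CXCL6 and PF4V1 have 1 probe set each, so the choices of probe set could not change their values. With low signals raised, PF4V1 took the ratio of the array medians, 0.31, so that sign was fixed beforehand. The sign of CXCL6 was fixed there too, as its Venus signal was below the median. CXCL6 was eligible only through the GAS2DN array. No direction can be given for PF4V1. The log2 ratio of CXCL8 was 3.03 by the main probe set, 2.18 with the array median added and 2.25 by the median over probe sets. It was 1.47 by the second-brightest one, which is also the value by the brightest probe set including _x_at, an alternative chosen after seeing the data. CXCL6 had 1.82, and 0.32 with low signals raised to the array median. CXCL2 changed sign, from -2.16 by the main probe set to 0.31 with low signals raised and to 0.014 by the median over probe sets, the second-brightest or the brightest probe set. CXCL5 had -1.10 by the main probe set, 1.31 by the median over probe sets and without _s_at and _x_at ones, and 2.29 by the second-brightest and the brightest one.

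Over 3-fold higher were 2 eligible chemokine probe sets, but 5 without a filter, 0 where each array's signal had to reach its median, and 1 after centring, quantile normalization, loess, raising low signals or adding the array median. Over 3-fold lower was none, but 1 without a filter. The counts over all single-gene probe sets were 1231 higher and 834 lower, and 5169 and 3116 without a filter, 31 and 60 where each array's signal had to reach its median, 84 and 66 with low signals raised, and 72 and 32 with the array median added. The excess of higher ones was reversed after centring, with 996 and 1107, quantile normalization, with 1006 and 1025, and loess, with 1001 and 1021.

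The median over the 9 genes was 0.24, but 0.78 without _s_at and _x_at probe sets and 1.47 by the second-brightest one, which 3 genes have. Centring lowers every log2 ratio by 0.31, and brought the medians of the cytokine list to -0.35, of the CXCL8 factors to -0.25, of the PF4 and PPBP factors to -0.21 and of the alpha-granule list to -0.23. The cytokine list had 0.23 by the median over probe sets, 0.35 without _s_at and _x_at and 0.21 by the second-brightest one, the CXCL8 factors had 0.25 by the second-brightest one, and other chemokines had 0.31 with low signals raised instead of 1.50. Values are given where a ratio changed by more than the SD between probe sets of 1 gene in its signal class, or a median changed by more than its members' SD over the root of their number. The cause of these changes was not tested, except that a probe set dim on both arrays takes the ratio of the medians, 0.31, when low signals are raised. With each array's signal required to reach its median, a value by main probe set could be given for CXCL3 alone, without _s_at and _x_at probe sets none for CXCL8, PF4 and PPBP, and a second-brightest probe set exists for CXCL8, CXCL2 and CXCL5. No paired analysis was possible because each group has 1 array. Both signals reached the array median in 1 probe set each of CXCL8, CXCL2 and CXCL3, and dim signals limit all other chemokine values.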
